A study of Homo sapiens with 8 samples.

Results

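Undifferentiated human embryonic stem cells were compared after 24 h with 20 mM ethanol and after 24 h without it, with 2 arrays at each dose. These 4 arrays are part of a set of 8. The other 4 hold embryoid bodies, which are floating aggregates of differentiating cells, at the same doses and time. The labels name the cells as the H9 line, an established human embryonic stem cell line, grown in mTeSR, a defined culture medium, and name no genetic change. They call the arrays of a group duplicates, with the letters A and B, and do not say whether these came from separate cultures, so p-values measure only the spread between these samples. The comparison took in every gene with a probe set that names only that gene, 19775 in all. Of these, 14072 were tested because at least 2 of the 8 arrays lay above that array's median signal, and 5703 were not. Of the tested genes, 12918 are called expressed below, since their mean over the 4 undifferentiated arrays lay above the mean of those arrays' medians.

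Ethanol reaches the inside of a cell without a transporter. Alcohol dehydrogenases, the cytochrome CYP2E1 and catalase oxidise it to acetaldehyde, and aldehyde dehydrogenases turn acetaldehyde into acetate, which acetyl-CoA synthetases can use. Pluripotent stem cells keep the capacity to form all germ layers through the transcription factors POU5F1, SOX2 and NANOG, and ethanol exposure of early embryos is a known cause of birth defects.

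The 4 undifferentiated arrays had median signals of 69.2 and 70.8 without ethanol and 79.4 and 74.1 with it, while the trimmed mean was 500 to 500.1 on every array. The number of arrays limits the precision. The 3′ probe sets of ACTB read 1.35 to 1.51 times its 5′ sets, and those of GAPDH 0.851 to 0.912 times. By transcripts that tell cell lines apart, 4 of the 8 arrays went against the named line, and all 4 were from 1 of the 2 stages. The comparison of doses was made within 1 stage. Of 12 pluripotency markers, 10 had their own probe set. All 10 lay above the median on all 4 arrays, and their summed signals were 143527 and 139450 without ethanol and 151864 and 142821 with it. Of 9 fibroblast markers, 6 lay above the median on all 4 arrays, while TWIST1 was under it on all 4. The 6 include the bright COL1A1, at 3981 to 5495, and THY1, at 5012 to 6457. They also include COL3A1, POSTN and PDGFRB, at 95.5 to 195. The median signal of the 9 markers was 134.9 to 169.8. Summed signals were 565 to 834 for 6 trophoblast genes, 717 to 991 for 7 endoderm genes, 514 to 692 for 6 genes of mesoderm or primitive streak, 1042 to 1139 for 5 neural genes and 2555 to 3115 for 5 endothelial or blood genes. Single genes made up much of some sums. KDR alone had 1862 to 2455, while CDH5 and HBE1 were under the median on all 4 arrays. Among the neural genes DCX had 339 to 549.5 and MAP2 302 to 347.

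MMP1 was the gene that passed the test, 1 of 14072, or 0.00711% of the genes tested. It encodes interstitial collagenase, a secreted protease that cuts fibrillar collagen. Its signals were 2.88 and 3.09 without ethanol and 12.9 and 12.3 with it. The doses did not overlap and each pair of duplicates lay close together, but all 4 signals were far under the array medians, at percentiles 4.52 and 5.16 of their arrays without ethanol and 17.6 and 18.5 with it. The deposited signals of MMP1 differed by 2.08 ± 0.09 on the log2 scale (standard error of the limma fit, n = 2 arrays per group, adjusted p = 0.0112). The probe set is not shown to be above background at either dose, so this value is no measure of how much the transcript changed, and no fold is given. In RNA of whole cultures, a change in the number of cells that express a gene and a change in RNA per cell cannot be told apart. Of the 146 tested genes with a mean signal under 20 in these arrays, whose median standard error was 0.60, 3 had a standard error at or below that of MMP1.

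MMP1 was tested only because it was brighter in embryoid bodies, where its signals were 214 and 195 without ethanol and 489.8 and 436.5 with it. The change there was 1.18 ± 0.09 (adjusted p = 0.0467), and the difference between the stages was -0.90 ± 0.13 (adjusted p = 0.2105). The call in undifferentiated cells held under 10 of the 18 alternatives that tested the gene. The other 8 ended it. They were the 4 fits without 1 embryoid body array (adjusted p = 0.0626 to 0.0788), which enter only through the shared spread, a trended variance (0.443), a floor at the 25th percentile (0.8405), the 4 undifferentiated arrays alone (0.665) and a replicate block (0.267). The count of genes passing was also set by single arrays. It was 27 without 0 mM replicate A, 24 without 0 mM replicate B, 8 without 20 mM replicate A, 34 without 20 mM replicate B and 0 without any 1 embryoid body array. Under an unadjusted p of 0.05, 649 genes were higher with ethanol (4.61%) and 337 were lower (2.39%). Among the expressed genes these were 497 (3.85%) and 277 (2.14%).

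**Figure D1:**
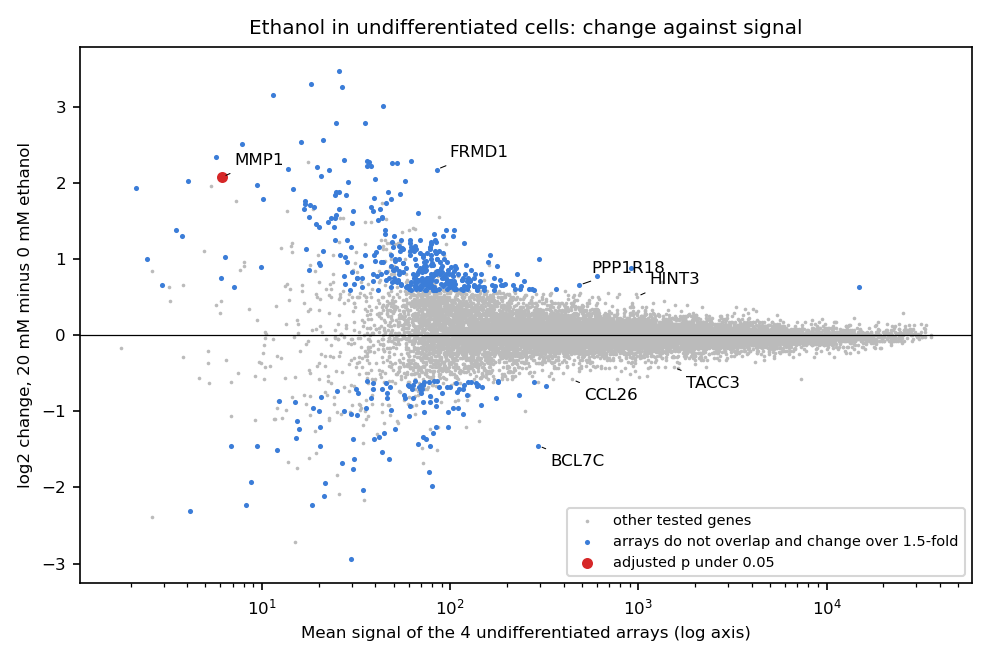
Log2 change with ethanol (vertical axis) against the mean signal of the 4 undifferentiated arrays (horizontal log axis) for the 14072 tested genes. Blue points are genes whose arrays did not overlap and differed by over 1.5-fold, and MMP1, in red, is the gene with an adjusted p under 0.05. Large changes lie at low signals, and the cloud narrows as the signal grows.

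FRMD1 came closest to the threshold among expressed genes. It encodes a protein with a FERM domain, a fold that many proteins use to link membranes to the cytoskeleton. Its signals were 38.9 and 40.7 without ethanol and 199.5 and 162 with it. Both control arrays were under the array median and both ethanol arrays were above it. The signals differed by 2.18 ± 0.15 on the log2 scale (adjusted p = 0.0526). The control signals, at percentiles 38.4 and 38.7 of their arrays, are not shown to be above background, so no fold is given. It passed under 5 of 19 alternatives, at adjusted p = 0.0297 to 0.0487, among them the fit without 20 mM replicate B. In embryoid bodies its signals were 83.2 and 95.5 without ethanol and 209 and 174 with it (1.10 ± 0.15, adjusted p = 0.0623).

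The 12 expressed genes with the smallest p and higher signals were FRMD1, IL37, PPP1R18, SLC44A5, HINT3, SNORA68, LOC100130872, CASKIN1, MMP25-AS1, SLC41A2, DAO and CYGB. Their log2 differences were 0.43 to 2.18 and their adjusted p-values 0.0526 to 0.289. None passed. IL37, an anti-inflammatory member of the interleukin 1 family, had signals of 56.2 and 47.9 without ethanol and 138 and 123 with it (1.33 ± 0.13, adjusted p = 0.101). PPP1R18, which targets protein phosphatase 1 to actin, had 389 and 380.2 against 631 and 589 with ethanol (0.66 ± 0.07, adjusted p = 0.104). The nucleotide hydrolase HINT3 was the brightest of the 12, at 832 and 813 against 1175 on both ethanol arrays (0.51 ± 0.07, adjusted p = 0.245). The other HINT3 probe sets, which were dimmer, had 0.47 and 0.00.

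Others of the 12 were dimmer. The choline transporter-like gene SLC44A5 had 174 and 178 without ethanol and 251 on both ethanol arrays. Its change turned to -0.13 when all its probe sets were averaged. CASKIN1, a scaffold of synapses, had 186 and 169.8 against 282 and 263, and the small nucleolar RNA SNORA68 had 50.1 and 66.1 against 112 and 109.6. The other CASKIN1 probe sets, which were dimmer, had -0.42 and -0.05. The D-amino acid oxidase DAO had 79.4 and 75.9 against 158.5 and 135, and the globin CYGB had 190.5 and 186 against 257 and 269. Other probe sets had 0.81 and 0.00 for CYGB, and -0.32 and 0.00 for SLC41A2. In 4 of the 12 the geometric mean of the control signals lay under the mean of the control arrays' medians. These 4 count as expressed only through their ethanol arrays. Beside FRMD1, SNORA68 passed in the fit without 0 mM replicate B (1.15, adjusted p = 0.0386).

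The 12 expressed genes with the smallest p and lower signals were CCL26, BCL7C, CST2, DUSP8, PAFAH2, ZNF436-AS1, LINC01741, SLC25A21, TACC3, GRK6, CIZ1 and NTS. Their log2 differences were -1.46 to -0.42 and their adjusted p-values 0.203 to 0.399. None passed. BCL7C, a subunit of SWI/SNF chromatin remodelling complexes, had signals of 479 and 489.8 without ethanol and 148 and 214 with it. Its doses lay far apart, and both ethanol arrays were still above the array median. The difference was -1.45 ± 0.18 (adjusted p = 0.203), and it passed without 20 mM replicate B (-1.71, adjusted p = 0.0297). The chemokine CCL26 had 549.5 and 537 against 371.5 and 355 (-0.58 ± 0.07, adjusted p = 0.203).

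TACC3, which stabilises the mitotic spindle, was the brightest of these, at 1778 on both control arrays and 1349 and 1318 with ethanol (-0.42 ± 0.07, adjusted p = 0.366). The peptide neurotensin is encoded by NTS, which had 1445 and 1479 without ethanol and 1072 and 1122 with it (-0.42 ± 0.08, adjusted p = 0.399). The receptor kinase GRK6 had 602.6 and 549.5 against 417 and 436.5, and the mitochondrial carrier SLC25A21 had 457 and 489.8 against 347 and 324. Other probe sets had -0.51, -0.08 and -0.08 for GRK6, -0.48, 0.00 and -0.05 for CIZ1, and 0.20 for PAFAH2. The cystatin CST2 had 234 on both control arrays against 141 and 123. For DUSP8, a phosphatase of stress kinases, the chosen probe set had 109.6 and 151 against 54.95 and 39.8, while its other probe set had 0.25. None of the 12 had a control geometric mean under the mean of the control medians. Both ethanol signals of DUSP8 lay under the array medians, so it counts as expressed only through its control arrays.

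**Figure D2:**
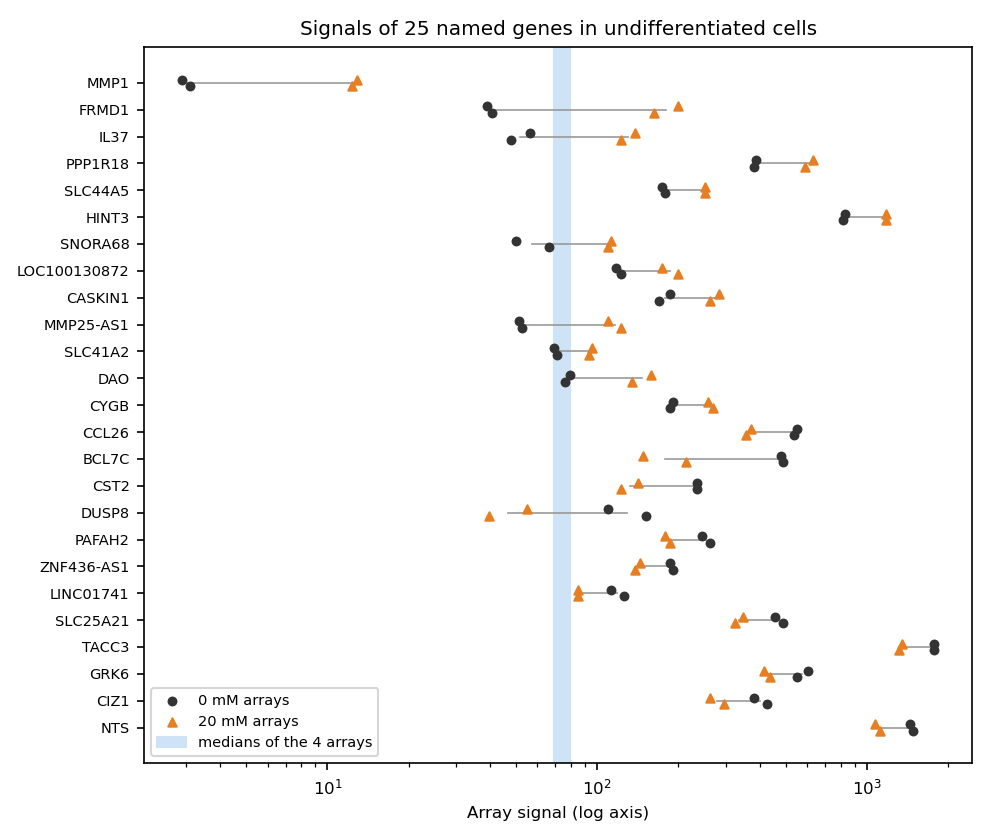
Array signals (log axis) of MMP1 and the 24 expressed genes with the smallest p, 12 higher and 12 lower. Black circles are the 2 arrays at 0 mM, orange triangles the 2 at 20 mM, and the band spans the medians of the 4 arrays. MMP1 lies far to the left of the band at both doses.

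By size instead of p, the largest higher values among expressed genes whose arrays did not overlap belonged to FRMD1, LOC101928844, ACSS1, IL37, KYNU and HCP5B, at 1.31 to 2.18 on the log2 scale. In all 6 the geometric mean of the control signals lay under the mean of the control medians, though 1 control array of LOC101928844, at 74.1, was above its own. These 6 thus met the rule for expressed genes only through their ethanol arrays. KYNU, an enzyme of tryptophan breakdown, had 63.1 and 67.6 without ethanol and 135 and 195 with it (1.31 ± 0.31, adjusted p = 0.472). The other KYNU probe sets, which were dimmer, had 1.11, -0.22 and 0.05. The largest lower values belonged to PLPP7, MED14OS, DUSP8, BCL7C, SPATA4 and NEU4, at -1.98 to -1.28. Except in BCL7C, the geometric means of their ethanol signals, 40.3 to 51.9, lay under the ethanol array medians. These genes met the rule only through their control arrays, so both rankings by size partly follow from that rule. The sialidase NEU4 had 138 and 115 against 57.5 and 46.8 (-1.28 ± 0.30, adjusted p = 0.469). PLPP7 had 174 and 144.5 against 66.1 and 24.6, so its ethanol arrays differed more from each other than the controls did.

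Most expressed genes differed little between the doses. Their median log2 change was 0.00, the median size of a change was 0.08, and the central 95% ran from -0.35 to 0.50. The 95% interval had a median half-width of 0.28, or 1.22-fold, and 74.99% of the expressed genes had an interval that lay within 1.5-fold in either direction. For 92.57% it lay within 2-fold. The arrays did not overlap in 1891 expressed genes that were higher (14.6%) and 1589 that were lower (12.3%). Over all 14072 tested genes these were 2169 (15.4%) and 1697 (12.1%). For any 1 gene the exact permutation test of 2 arrays against 2 cannot go below p = 0.333.

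Differences between doses were about as large as those between duplicates. The 2 control arrays were over 1.5-fold apart in 514 expressed genes, or 3.98%, and the 2 ethanol arrays in 864, or 6.69%. The 4 pairs of arrays from different doses differed that much in 4.25 to 6.51%. The standard deviation of the log2 differences was 0.259 and 0.313 within a dose and 0.265 to 0.311 between doses. 20 mM replicate A was part of the 3 pairs with the largest spread.

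Without overlap and over 1.5-fold, 163 expressed genes were higher (1.26%) and 42 lower (0.325%). Over all tested genes these were 362 (2.57%) and 112 (0.796%). This balance moved with the scaling. It was 103 higher and 85 lower after quantile normalization, 106 and 93 after cyclic loess, and 85 and 140 after median centring, which put the median change of the expressed genes at -0.13. The share without overlap also depended on the signal. In the dimmest of 10 equal groups, with a typical signal of 57.5, 25% of genes were higher and 9.30% lower. In the brightest, with a typical signal of 7852, 6.61% were higher and 13.6% lower. The array medians, which were higher with ethanol, moved with the dim genes, and their part in it was not tested.

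Among the 5459 tested genes with a mean signal over 1000, changes ran from -0.58 to 0.70, with a standard deviation of 0.10. The 95% interval lay within 1.5-fold for 96.5% of them. COX1, the mitochondrially encoded subunit of cytochrome c oxidase, chosen here after its values were seen, was the 1 bright gene that passed 1.5-fold without overlap. Its signals were 9120 and 15488 without ethanol and 19498 and 17378 with it (0.63 ± 0.24, adjusted p = 0.69). Its control arrays differed from each other by more than its ethanol arrays did.

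**Figure D3:**
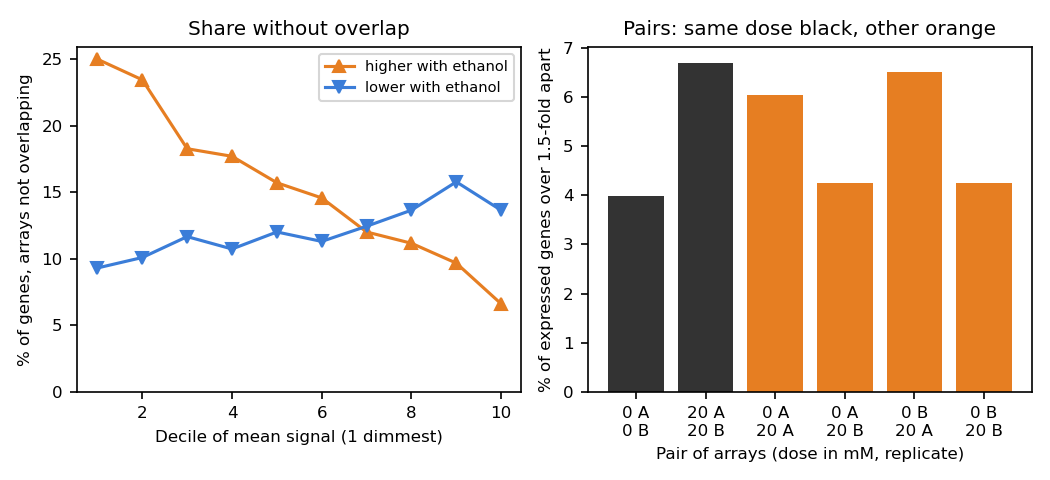
Left, the percentage of tested genes whose arrays did not overlap, in 10 groups ordered by mean signal, for higher (orange) and lower (blue) values with ethanol; the share higher falls from 25% in the dimmest group to 6.61% in the brightest. Right, the percentage of expressed genes over 1.5-fold apart for each pair of arrays, with pairs of the same dose in black and of different doses in orange.

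In 37 gene lists with 689 genes, of which 578 were tested, 1 list held a gene that passed, MMP1. The medians of the lists ran from -0.16 to 0.18, beside 0.02 over all tested genes, and 32 of the 37 lay within 0.10 of 0. Median centring, which puts the median of all tested genes at -0.12, shifts every list down by about as much. Counts of members without overlap are read below against the 15.4% higher and 12.1% lower over all tested genes. Counts of positive or negative members are read against 51.66% positive over all tested genes.

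Genes of ethanol and aldehyde breakdown had a median of 0.00. Of 25, 17 were tested, with 1 higher (5.88%) and 6 lower (35.3%) without overlap, and none passed. ADH5, the alcohol dehydrogenase found in nearly all tissues, had signals of 9772 and 8913 without ethanol and 9772 on both ethanol arrays. The doses overlapped (0.07 ± 0.08, adjusted p = 0.946). ALDH2, the mitochondrial enzyme that removes acetaldehyde, had 1950 and 2042 against 1905 and 2291 (0.07 ± 0.10, adjusted p = 0.955). Catalase, from CAT, was dim at 93.3 and 44.7 against 81.3 and 72.4, and CYP2E1 was not tested, since none of its 4 probe sets was bright enough.

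The lower members were ALDH3A2, which oxidises fatty aldehydes, at 2344 and 2399 against 2138 and 1778 (-0.28 ± 0.11, adjusted p = 0.702), ALDH1A3, which makes retinoic acid, at 339 and 355 against 302 and 288 (-0.23 ± 0.10, adjusted p = 0.729), with ACSS2 and the dim ALDH1A2, ALDH3B1 and ADH4. ALDH1A2 lay under the medians of all 4 arrays and was tested only through the embryoid bodies. The higher member was ACSS1, the acetyl-CoA synthetase of mitochondria. It had 69.2 and 61.7 without ethanol and 166 and 174 with it (1.38 ± 0.64, adjusted p = 0.744). Its 4 arrays here were tight, and its standard error came from the embryoid bodies, where the ethanol arrays were at 155 and 34.7. The other ACSS1 probe sets, which were dimmer, had 2.54, 0.25, 0.23 and -0.86.

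The list of NRF2 targets and antioxidant enzymes had a median of -0.02 over 24 tested genes, with 3 higher and 5 lower without overlap. Thioredoxin reductase, from TXNRD1, had 4786 and 4898 against 5623 and 5248 (0.17 ± 0.08, adjusted p = 0.744), and its mean over all probe sets was -0.34. The peroxiredoxin PRDX3 had 12303 on both control arrays against 11749 and 10965 (-0.12 ± 0.07, adjusted p = 0.8115). Heat shock chaperones had a median of -0.01 over 14, and their regulator HSF1 had 525 on both control arrays against 436.5 and 447 (-0.25 ± 0.08, adjusted p = 0.6197). The mean of all HSF1 probe sets was 0.58. Endoplasmic reticulum folding genes had a median of 0.03 over 19, with 1 higher and 0 lower without overlap. That gene was EDEM1, which sorts misfolded glycoproteins for breakdown, at 355 and 123 against 407 and 436.5 (1.01 ± 0.45, adjusted p = 0.726). Its control arrays lay far apart. Without 0 mM replicate A, which leaves the control array at 123, its change was 1.78. The other control array, at 355, lay much nearer to the ethanol arrays, so the size of the change rested on the array at 123.

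The amino acid response, which the transcription factor ATF4 drives, had 20 tested genes, a median of -0.04, and 2 higher and 4 lower without overlap. CHAC1, which breaks down glutathione, had 479 and 489.8 without ethanol and 398 and 331 with it (-0.42 ± 0.12, adjusted p = 0.587). The serine synthesis enzyme PSAT1 had 14125 and 13490 against 12589 and 10965, and the mitochondrial folate enzyme MTHFD2 had 14791 and 14125 against 11482 and 13183. Both differences were -0.23 ± 0.09 (adjusted p = 0.6865). DELE1, which relays mitochondrial stress to this pathway, had 851 and 776 against 1000 and 912 (0.23 ± 0.09, adjusted p = 0.6865). In embryoid bodies the DELE1 change was 1.20.

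Metallothioneins are small proteins that bind zinc and copper. Together with the zinc sensor MTF1 and the zinc transporter SLC30A1 they had the lowest median of any list. It was -0.16 over 10 tested genes, of which 8 were negative, and stayed below 0 under the 3 other scalings, at -0.12, -0.15 and -0.29. MT3 and MT1F were lower without overlap (20%), MTF1 was higher, and none passed. MT2A, the most widely expressed member, had 11749 and 9772 without ethanol and 9772 and 9120 with it (-0.18 ± 0.11, adjusted p = 0.815). MT1F had 6457 and 5248 against 5012 and 4467 (-0.30 ± 0.14, adjusted p = 0.744). MT1E had 6607 and 5623 against 5623 and 4786, MT1H 12303 and 10233 against 10965 and 9550, and MT1X 16596 and 12882 against 14125 and 12882. In each of these 5 the 0 mM replicate A was the highest array, and without that array the list median was -0.10.

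The metallothionein genes lie side by side on chromosome 16 and are near-identical, so their probe sets can share transcripts. Their promoters carry metal response elements, which MTF1 binds. Of 10 metallothionein genes, 4 had a promoter in the RefSeq sequences used here (GRCh38.p14). MT1B, the 1 of these without a tested probe set, is not shown. The other 3 are printed because in each the 0 mM replicate A was the highest array. Each is the 250 bases before the start of the gene, on the plus strand, at chr16:56608334-56608583 for MT2A, chr16:56669564-56669813 for MT1H and chr16:56682220-56682469 for MT1X. Capitals mark the core of the element, TGCACNC or TGCGCNC, searched on both strands.
MT2A: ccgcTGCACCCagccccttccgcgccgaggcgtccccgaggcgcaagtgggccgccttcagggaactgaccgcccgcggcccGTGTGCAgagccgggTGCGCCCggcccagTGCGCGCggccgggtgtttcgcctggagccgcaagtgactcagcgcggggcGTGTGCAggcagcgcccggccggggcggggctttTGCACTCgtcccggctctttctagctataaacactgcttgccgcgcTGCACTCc
MT1H: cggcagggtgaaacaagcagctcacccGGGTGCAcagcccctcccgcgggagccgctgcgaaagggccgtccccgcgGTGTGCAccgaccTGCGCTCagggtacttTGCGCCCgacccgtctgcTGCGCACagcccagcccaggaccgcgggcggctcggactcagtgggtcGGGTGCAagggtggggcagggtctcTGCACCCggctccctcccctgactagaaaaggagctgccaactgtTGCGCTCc
MT1X: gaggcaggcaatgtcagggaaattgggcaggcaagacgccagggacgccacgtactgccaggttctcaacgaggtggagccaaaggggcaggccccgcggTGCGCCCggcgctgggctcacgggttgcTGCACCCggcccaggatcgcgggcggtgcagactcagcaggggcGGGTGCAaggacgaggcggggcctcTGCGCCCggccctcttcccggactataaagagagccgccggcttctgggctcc
The core was found 7 times in MT2A, 8 times in MT1H, 4 times in MT1X and 3 times in MT1B. Of 27305 promoters of the same length, 24.7% held at least 1, 1.56% at least 3 and 0.366% at least 4. A match is a run of letters and does not show that a factor was bound. MTF1 itself had 525 and 513 without ethanol and 549.5 and 537 with it (0.07 ± 0.08, adjusted p = 0.939).

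Subunits of the respiratory chain and ATP synthase had a median of -0.05 over 25 tested genes. Without overlap, 8 were lower, or 32%, and 1 was higher, or 4%. CYC1, of complex III, had 7943 and 8128 without ethanol and 6918 and 7244 with it (-0.18 ± 0.08, adjusted p = 0.7115). NDUFA1 and NDUFS3, of complex I, had 9333 and 9550 against 9120 and 7762, and 4074 and 4365 against 3981 and 3802. NDUFA2, also of complex I, had 5495 and 5754 against 5129 and 4786, but 0.17 without the _x_at and _s_at probe sets, which can detect more than 1 transcript. Every one of these differences was small and none passed. The list median stayed between -0.08 and -0.02 when each undifferentiated array was left out. Ribosomal proteins had a median of 0.00 over 21, with 0 genes without overlap in either direction, and glycolysis and hypoxia genes had 0.00 over 19, likewise with 0 in either direction.

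Pluripotency genes had a median of 0.02 over 20 tested genes, with 5 higher without overlap, or 25%, and 1 lower, or 5%. NANOG had 8318 and 7943 without ethanol and 8128 and 8511 with it, with overlapping doses (0.03 ± 0.07, adjusted p = 0.975). SOX2 had 18197 and 16596 against 19498 and 18621 (0.13 ± 0.09, adjusted p = 0.859). No probe set names POU5F1 alone. A set that it shares with its pseudogenes had 15136 and 14791 without ethanol and 14791 on both ethanol arrays.

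ZFP42, a zinc finger marker of stem cells, had 9772 and 10965 without ethanol and 12303 and 11220 with it (0.18 ± 0.09, adjusted p = 0.7695), and -0.03 without its _x_at and _s_at probe sets. The surface glycoprotein PODXL had 19953 on both control arrays against 23442 and 20893 (0.15 ± 0.08, adjusted p = 0.8045). TERT, the catalytic subunit of telomerase, had 214 and 269 against 199.5 and 209 (-0.23 ± 0.12, adjusted p = 0.7945). SALL4 had 2089 and 2239 against 2089 and 1622, with overlapping doses. The naive-state factors had a median of -0.01 over 8 tested genes. TBX3, the 1 without overlap, was under the array medians at 55.0 and 66.1 against 30.9 and 45.7. It was tested only through the embryoid bodies.

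DNA methylation genes had a median of 0.03 over 21 tested genes, with 4 higher without overlap, or 19.1%, and 0 lower. DNMT3A, which places new methyl groups, had 4571 and 4467 without ethanol and 5370 and 5129 with it (0.22 ± 0.07, adjusted p = 0.609). Another of its probe sets, at 1622 and 1950 against 1995 and 1622, gave 0.02. The maintenance methyltransferase DNMT1 had 3981 and 4266 against 4467 and 4898 (0.18 ± 0.12, adjusted p = 0.845), and its partner UHRF1 had 3020 and 3162 against 3311 and 3631 (0.17 ± 0.09, adjusted p = 0.787). DNMT3B had 21878 and 20893 against 23442 and 21380, and the demethylase TET1 had 5012 and 4898 against 4365 and 5495. Both overlapped between doses. Polycomb and histone modifiers had a median of 0.03 over 19, with 3 higher and 1 lower without overlap.

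Of the signalling pathways, Hedgehog had the highest median of any list, 0.18 over 12 tested genes, of which 10 were positive. Hedgehog ligands act through the receptor PTCH1 and its co-receptors CDON and BOC. CDON had 417 and 427 without ethanol and 525 and 513 with it (0.30 ± 0.08, adjusted p = 0.532), and its mean over all probe sets was -0.82. BOC had 295 and 269 against 371.5 and 288, with overlapping doses. The 2 negative members were PTCH1 and GLI1, also with overlapping doses. PTCH1 had 933.3 and 1096 against 1000 on both ethanol arrays (-0.02 ± 0.09). GLI1 had 316.2 and 234.4 against 302 and 177.8 (-0.23 ± 0.26). HHIP, which captures the ligands, was under the array medians at 23.4 and 20.4 against 36.3 and 33.9 (adjusted p = 0.2445), and was likewise tested only through the embryoid bodies. The members deviated from their 4-array means by a median of 0.22 on 20 mM replicate A and -0.04 on replicate B. Without replicate A of the ethanol arrays the list median was 0.05, and after median centring it was also 0.05.

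Genes of BMP signalling had a median of 0.12 over 18 tested genes, of which 15 were positive, and -0.02 without 20 mM replicate A. After median centring it was also -0.02. CHRD encodes chordin, which binds BMP ligands and keeps them from their receptors. Its signals were 10.96 and 8.91 without ethanol and 30.2 and 34.7 with it. The doses did not overlap, but all 4 arrays were under their medians, and CHRD was tested only because it was brighter in embryoid bodies. It is not shown to be above background here, so no size of change is given. The adjusted p was 0.0693, and 0.0474 without 0 mM replicate A. Notch signalling had a median of 0.06 over 16, and its targets HES5, at 195 and 169.8 against 214 and 245.5 (0.33 ± 0.13, adjusted p = 0.702), and HEY1, at 661 and 603 against 692 and 724 (0.17 ± 0.08, adjusted p = 0.7445), were the 2 members without overlap.

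The retinoic acid list, which shares ALDH1A2 and ALDH1A3 with the list of ethanol breakdown, had a median of -0.10 over 15, with 1 higher and 4 lower without overlap. The receptor gene RARB, itself a target of retinoic acid, had 123 and 102 without ethanol and 75.9 on both ethanol arrays (-0.56 ± 0.18, adjusted p = 0.611). The median was 0.17 without 20 mM replicate B and -0.27 without 20 mM replicate A, so its direction rested on 1 array. Nodal and TGF-beta genes had a median of -0.05 over 16, and the receptor TGFBR2 had 371.5 and 407 against 363 and 309 (-0.22 ± 0.10, adjusted p = 0.744). FGF feedback genes had -0.06 over 20 and WNT genes 0.03 over 21, each with 0 higher and 1 lower without overlap.

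**Figure D4:**
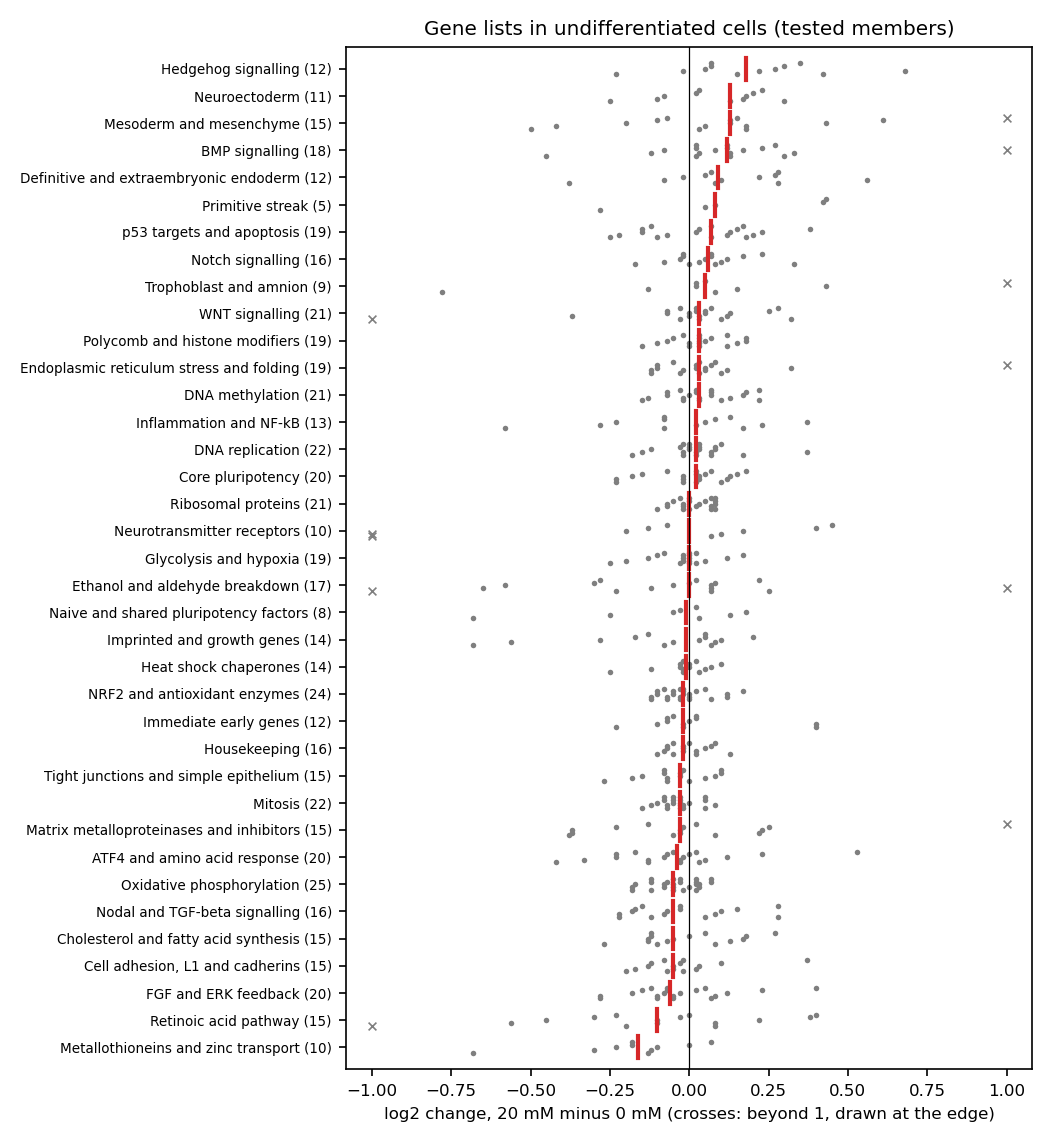
Log2 change with ethanol of every tested member of the 37 lists, 1 row per list with the number tested in brackets. Grey points are genes, crosses are genes beyond 1 in size drawn at the edge, and red bars are list medians, which run from -0.16 for metallothioneins to 0.18 for Hedgehog signalling.

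DNA replication genes had a median of 0.02 over 22 and mitosis genes -0.03 over 22, of which 17 were negative, each list with 1 higher and 1 lower without overlap. The lower mitosis gene was the checkpoint kinase TTK, at 5012 on both control arrays against 4365 and 4677 (-0.15 ± 0.07, adjusted p = 0.773). Targets of p53 and apoptosis genes had a median of 0.07 over 19, with 5 higher, or 26.3%, and 4 lower, or 21.1%. The survival gene BCL2 had 85.1 and 87.1 without ethanol and 105 and 120.2 with it (0.38 ± 0.09, adjusted p = 0.452). The DNA damage sensor XPC had 1413 and 1318 against 1175 on both ethanol arrays (-0.22 ± 0.08, adjusted p = 0.653). SESN1 had 1445 and 1349 against 1820 and 1479 (0.23 ± 0.11), and the caspase inhibitor XIAP had 3090 and 3311 against 2399 and 3020, but 0.12 over all its probe sets. Among immediate early genes, with a median of -0.02 over 12, MYC had 2239 and 2291 against 1738 and 2138 (-0.23 ± 0.12, adjusted p = 0.773).

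Imprinted and growth genes had a median of -0.01 over 14, with 0 higher and 4 lower without overlap, or 28.6%. NDN, expressed from the paternal copy, had 3388 on both control arrays and 3020 on both ethanol arrays (-0.17 ± 0.07, adjusted p = 0.709). The growth factor binding protein IGFBP2 had 13183 and 10965 against 10471 and 9333 (-0.28 ± 0.12, adjusted p = 0.712). The noncoding transcript MEG3 had 107 on both control arrays against 87.1 and 60.3. In embryoid bodies MEG3 had the opposite sign, 1.18.

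Among the other matrix metalloproteinases and their inhibitors, with a list median of -0.03 over 15, the membrane-bound MMP15 had 257 and 251 without ethanol and 209 and 186 with it (-0.37 ± 0.09, adjusted p = 0.466). MMP14, also membrane-bound, had 575 and 525 against 380.2 and 479 (-0.37 ± 0.15, adjusted p = 0.707). Without overlap 4 members were higher, MMP1 included, and 4 lower. Adhesion genes had a median of -0.05 over 15. L1CAM, a neural adhesion molecule that ethanol is known to act on, had 832 and 933 against 646 and 912, with overlapping doses (-0.20 ± 0.18, adjusted p = 0.9045). CDH3 had 2754 and 3090 against 4365 and 3236 (0.37 ± 0.15, adjusted p = 0.7095) and NCAM1 302 and 288 against 263 on both ethanol arrays (-0.17 ± 0.07, adjusted p = 0.7199).

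The lists of lineage genes had medians of 0.05 for trophoblast and amnion, 0.08 for primitive streak, 0.09 for endoderm, 0.13 for mesoderm and 0.13 for neuroectoderm. After median centring these were -0.08, -0.05, -0.04, -0.00 and 0.00. HAND1, of extraembryonic and cardiac mesoderm, had 55.0 and 69.2 without ethanol and 81.3 and 85.1 with it (0.43 ± 0.12, adjusted p = 0.58). TFAP2A, of amnion and neural crest, had 55.0 and 60.3 against 199.5 and 74.1, so 20 mM replicate A stood apart, and it passed without replicate B (1.79, adjusted p = 0.0238). The summed signal of the 6 trophoblast markers, TFAP2A and HAND1 included, was 565 and 624 without ethanol and 834 and 665 with it. TFAP2A itself made up 199.5 of the 834, so the sum is not separate from it. The brighter markers KRT7 and GATA3 had overlapping doses (0.08 and 0.02). The part of the summed signal in these values was not tested. MEOX1, of somites, was far under the medians at 16.98 and 4.90 against 47.9 and 37.2, and was tested only through the embryoid bodies. The endoderm factor HHEX had 102 and 83.2 against 166 and 112 (0.56 ± 0.21). The neural genes NES and PAX6 had 2455 and 3020 against 3311 and 3090, and 151 and 138 against 204 and 155. Other members were lower. APOA1, of the endoderm list, had 147.9 and 199.5 against 109.6 and 158.5 (-0.38), with overlapping doses. THY1, of the mesoderm list, had 6457 and 6166 against 6026 and 5012 (-0.20). Changes were negative in 3 of 12 tested endoderm genes, 5 of 15 for mesoderm and 3 of 11 for neuroectoderm. For trophoblast and amnion they were negative in 2 of 9, and for primitive streak in 1 of 5.

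Ethanol was also tested in embryoid bodies, where 10 genes passed (0.0711%). The difference between the stages passed for 0 of 14072 genes, with a smallest adjusted p of 0.122 and an unadjusted p under 0.05 for 1828. It was 0 genes too under all alternatives but 4. The stages do not share arrays, though they share the fitted spread. Since the arrays that went against the named line were all from 1 stage, stage and cell line cannot be told apart in any contrast between stages. Of the 12 genes with the smallest p and higher values in undifferentiated cells, 10 were also higher without overlap in embryoid bodies, where 29.4% of all tested genes were, and 1 was lower. Of the 12 with lower values, 6 were lower, against 28.1% of all tested genes, and 5 were higher. Both sets were ranked by a p that uses the shared spread, which favours genes with close duplicates in embryoid bodies. Such genes are less likely to overlap there in either direction. The shares of all tested genes are therefore no matched background, and a shared response of the stages was not tested by these counts.

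MMP25-AS1, a transcript antisense to a metalloproteinase gene, had 51.3 and 52.5 against 109.6 and 123 in undifferentiated cells and 69.2 and 49.0 against 120.2 and 138 in embryoid bodies, with changes of 1.16 ± 0.18 and 1.15 ± 0.18 and a difference of -0.02 ± 0.25. CCL26 was lower in both, by -0.58 ± 0.07 and -0.83 ± 0.07, and passed in embryoid bodies (adjusted p = 0.0488), where its signals were 93.3 and 91.2 against 50.1 and 53.7. PPP1R18 had opposite signs, 0.66 ± 0.07 and -0.38 ± 0.07 (adjusted p of the difference = 0.122). CST2 did as well, at -0.83 ± 0.12 and 0.88 ± 0.12, with 3020 and 3311 against 6310 and 5370 in embryoid bodies. LINC01741 had -0.48 ± 0.08 and 0.70 ± 0.08, with 79.4 and 85.1 against 132 and 135 in embryoid bodies. The adjusted p of the difference was 0.122 for both, so none of these contrasts passed.

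**Figure D5:**
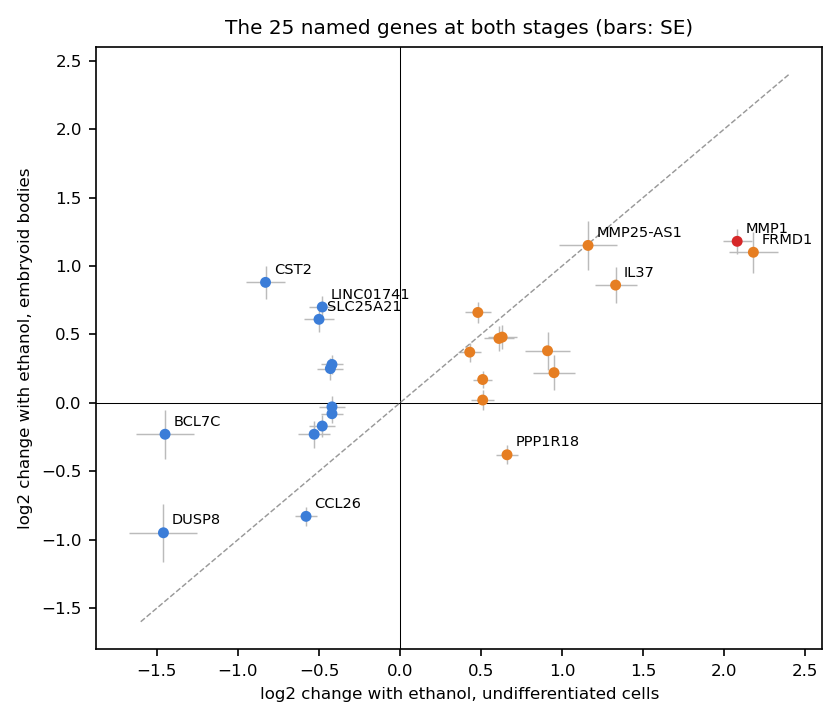
Log2 change with ethanol in undifferentiated cells (horizontal axis) and embryoid bodies (vertical axis) for MMP1 (red) and the 24 expressed genes with the smallest p (orange higher, blue lower in undifferentiated cells). Bars are standard errors and the dashed line marks equal changes. PPP1R18, CST2, LINC01741, SLC25A21, TACC3 and GRK6 lie in the quadrants of opposite sign.

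Of the 163 expressed genes higher by over 1.5-fold without overlap in undifferentiated cells, 49 met the same condition in embryoid bodies. That is 30.1% of them and 8.38% of the 585 in embryoid bodies, beside 4.53% of all expressed genes. Of the 163, 148 had a mean signal under 200. Among expressed genes with a mean signal under 200, the shared part was 32.4% beside 16.2% of all such genes, and after quantile normalization 26.6% beside 8.46%. Of the 42 lower genes, 3 were lower in embryoid bodies (7.14% beside 0.937% of all expressed genes) and 8 were higher (19.1% beside 4.53%). After quantile normalization this balance turned, with 14 of 85 lower (16.5% beside 2.22%) and 9 higher (10.6% beside 2.76%). Of the 42, 38 had a mean signal under 200. Among these, 7.9% were lower in embryoid bodies, beside 2.245% of all expressed genes under 200. The part that was higher was 21.05%, beside 16.17%. Under 200 after quantile normalization, the parts were 16.9% lower beside 6.05%, and 11.7% higher beside 8.46%.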

How the data were processed

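RNA was measured on 8 expression arrays with 54675 probe sets each. The authors deposited log10 values. The submitters' processing notes name RMA, with no version, but the values fit globally scaled signals: they run below 0 and share a trimmed mean of 500 to 500.1 once 2% of probe sets are cut at each end. The deposited log10 values keep 2 decimals, were multiplied by 3.32 to give log2 (a step of 0.033), and were not normalized further. The analysis had been planned for log2 values. The genome build is not given in the sources used here.

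Of the probe sets, 41097 name 1 gene in the platform annotation (41043 matched RefSeq by gene ID), 1801 several, 11777 none, and 62 are controls. Where several sets named a gene, the brightest on average was kept. limma 3.58.1 in R 4.3.3 fitted 1 mean per group to all 8 arrays (lmFit and eBayes, 4 residual and 1.81 prior degrees of freedom). p-values were adjusted by the Benjamini-Hochberg method over all tested genes, at 0.05. The fit was tested on simulated data. Errors are standard errors of the log2 change.

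Genes and lists were chosen with earlier results of these data known. Named genes are those that passed, the 12 smallest p and 6 largest changes in each direction among expressed genes without overlap, up to 4 members with the smallest p per list, and 13 genes of ethanol breakdown, DNA methylation, pluripotency and adhesion. Genes used to check the line are not named. Like-lettered arrays deviated from their group means with correlations of -0.026 and -0.007, so the letters were not used as pairs. Alternatives covered the filter, probe set choice, normalization, variance model, a floor, a block and leaving out each array.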

Additional observations from a re-analysis of the deposited data

How the results depend on the processing

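The count of genes passing in undifferentiated cells was 1, and 2 without a filter, 3 when _x_at and _s_at sets were dropped, 2 after median centring and 2 after cyclic loess. It was 0 with a filter at the 75th percentile, 0 under a trended, robust variance, 0 with a floor at the 25th percentile, 0 with only the 4 undifferentiated arrays, and 0 to 34 when each array was left out. With the replicate block, which the design gives no ground for, it was 0, with a smallest adjusted p of 0.267, and the count for the difference between stages was 0 as without it. That difference passed for 13 genes with the filter at the 75th percentile, 31 with the trended and robust variance and 0 to 10 when each array was left out, with 5 without undifferentiated 0 mM replicate A and 10 without undifferentiated 20 mM replicate B.

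Averaging all probe sets turned the sign of SLC44A5 (-0.13), L1CAM (0.02), TXNRD1 (-0.34), PRDX3 (0.03), HSF1 (0.58), TERT (0.01), CDON (-0.82) and XIAP (0.12). Leaving out the _x_at and _s_at kinds turned DUSP8 (0.25), ADH5 (-0.03), NDUFA2 (0.17) and ZFP42 (-0.03). Median centring, which moved the median change of all genes from 0.02 to -0.12, turned ADH5 (-0.07), ALDH2 (-0.07), DNMT3B (-0.07), MTF1 (-0.07) and NANOG (-0.10), and quantile normalization turned TET1 (0.01). Over the fits that leave out an array, the changes ran from -0.07 to 0.20 for ALDH2, -0.28 to 0.78 for CAT, -0.18 to 0.15 for TET1, -0.45 to 0.05 for L1CAM and -0.30 to 0.07 for MT1X. None of these genes passed in any of them. In 1859 other combinations of a named gene and an alternative, direction and side of the threshold held. In 10 a gene newly passed, and in 8 MMP1 no longer did. Medians of lists moved by more than the spread between duplicates in 97 cases and by less in 643. With 2 arrays per group and dim signals, changes of genes under the array medians are the least certain.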
